A study of Mus musculus with 28 samples.

Results

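Collagens are the most abundant structural proteins of connective tissue, and the 44 protein-coding collagen genes of the mouse genome that carry the symbol Col, a type number, the letter a and a chain number were followed here through 3 stages of molar development. The rule picks them by gene symbol from the 52636 genes of the count table and uses no measured value. They fall into 11 fibrillar genes, 6 basement membrane genes, 9 FACIT genes (fibril-associated collagens with interrupted triple helices) and 18 others, the last made up of 8 microfibrillar genes (type VI and the related Col26a1 and Col28a1), 3 short-chain network genes, 4 transmembrane genes, 2 multiplexin genes and 1 anchoring fibril gene.

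Each library came from 1 first molar tooth germ of a C57BL/6JOlaHsd mouse embryo, dissected at E13.5 (bud stage, called E13 here), E14.5 (cap stage, E14) or E16.5 (bell stage, E16), with 7 teeth per stage from 7, 6 and 5 embryos. A tooth germ holds an epithelium and a mesenchyme, and, per the study's methods and labels, a little surrounding tissue stayed on each tooth, so each library is a mixture of cell types, and some teeth of a stage share an embryo. All groups were of this strain and wild type, a genotype given by the labels for E15 and by the study's methods for the other stages, and the labels name no treatment. A further 6 lower first molars of E15 embryos were measured in a separate table together with the E13 and E16 teeth.

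Collagen chains assemble 3 at a time into a triple helix, which needs a glycine at regular intervals along each chain. Fibrillar collagens form the load-bearing fibrils of mesenchyme, bone and dentin, FACIT and microfibrillar collagens bind or accompany those fibrils, and network-forming collagens build the sheet of basement membrane that separates dental epithelium from mesenchyme. Transmembrane collagens sit in the cell surface, where the product of Col17a1 is part of the hemidesmosomes of basal epithelial cells, and the anchoring fibrils made by Col7a1 tie the basement membrane to the tissue beneath it.

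The glycine repeat is the feature that the members share at the level of sequence, although the choice by symbol did not use it. In the longest coding sequence of each gene, runs were counted of codon triplets that begin with a GG codon, the 2 bases that all glycine codons share. The longest uninterrupted run held 216 to 344 repeats in the 11 fibrillar genes, 39 to 66 in the 6 basement membrane genes, 32 to 113 in the 9 FACIT genes and 23 to 87 in the others. Basement membrane genes nevertheless held 426 to 444 repeats in total, spread over several runs, and Col7a1 held the highest total of all members, with 474. The first 63 bases, or 7 repeats, of the longest run are shown for the genes with the highest levels (Col1a1, Col1a2, Col3a1), for the members that fell furthest (Col2a1, Col25a1), for the main basement membrane chain Col4a1 and for Col7a1, read from GENCODE coding sequences on GRCm38, with the GG of the glycine codon that opens each repeat in capitals (other glycine codons stay in lower case):
Col1a1: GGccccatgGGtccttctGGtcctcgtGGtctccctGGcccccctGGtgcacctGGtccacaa
Col1a2: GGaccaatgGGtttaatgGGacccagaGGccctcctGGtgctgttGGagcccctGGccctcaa
Col3a1: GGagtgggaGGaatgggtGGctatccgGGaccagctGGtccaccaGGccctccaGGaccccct
Col2a1: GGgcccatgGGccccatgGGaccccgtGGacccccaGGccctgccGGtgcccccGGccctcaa
Col4a1: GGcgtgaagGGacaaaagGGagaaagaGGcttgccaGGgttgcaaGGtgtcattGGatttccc
Col7a1: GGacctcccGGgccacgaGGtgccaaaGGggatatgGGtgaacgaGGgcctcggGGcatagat
Col25a1: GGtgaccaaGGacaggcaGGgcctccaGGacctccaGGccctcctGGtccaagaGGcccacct

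The median GC content of the longest transcript was 55.1% over the 44 members and 48.9% over the 19060 tested genes with a transcript, and the members ranged from 45.9% in Col25a1 to 62.9% in Col11a2.

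The promoter stretches are shown for 3 members that were higher at each step of the series (Col7a1, Col4a6, Col5a3) and for 1 that stayed level and then fell (Col25a1). RefSeq start sites on GRCm38.p6 were found for 35 of the 44 members, and the 9 without an entry were Col1a1, Col2a1, Col4a3, Col5a2, Col9a3, Col12a1, Col14a1, Col22a1 and Col26a1. Each stretch is the 250 bases before the start, 5′ to 3′ on the strand of the gene and free of annotated exons, with every match to CCAAT (the CCAAT box) or GGGCGG (the GC box) on either strand in capitals. None of these 4 stretches held TATAAA (the TATA box):
Col7a1: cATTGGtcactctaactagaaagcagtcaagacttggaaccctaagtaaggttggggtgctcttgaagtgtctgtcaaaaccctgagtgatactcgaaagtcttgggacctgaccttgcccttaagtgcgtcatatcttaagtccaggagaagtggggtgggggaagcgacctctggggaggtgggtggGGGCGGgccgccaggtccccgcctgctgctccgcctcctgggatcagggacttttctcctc
Col4a6: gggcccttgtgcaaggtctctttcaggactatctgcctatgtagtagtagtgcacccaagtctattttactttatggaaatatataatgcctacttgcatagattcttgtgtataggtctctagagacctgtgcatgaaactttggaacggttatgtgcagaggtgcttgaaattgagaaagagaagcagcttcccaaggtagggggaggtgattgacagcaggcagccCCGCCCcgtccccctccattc
Col5a3: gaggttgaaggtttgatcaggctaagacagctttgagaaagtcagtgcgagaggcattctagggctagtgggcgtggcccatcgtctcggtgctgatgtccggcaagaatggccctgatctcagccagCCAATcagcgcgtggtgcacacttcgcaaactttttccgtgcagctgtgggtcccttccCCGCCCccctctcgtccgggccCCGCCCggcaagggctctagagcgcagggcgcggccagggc
Col25a1: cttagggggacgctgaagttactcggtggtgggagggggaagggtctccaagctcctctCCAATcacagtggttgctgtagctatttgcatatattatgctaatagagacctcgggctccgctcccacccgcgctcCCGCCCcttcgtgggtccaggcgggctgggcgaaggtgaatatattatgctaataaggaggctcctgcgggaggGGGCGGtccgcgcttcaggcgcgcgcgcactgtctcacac

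These stretches lie at chr9:108953336-108953585 on the plus strand for Col7a1, chrX:141474077-141474326 on the minus strand for Col4a6, chr9:20815068-20815317 on the minus strand for Col5a3 and chr3:130180595-130180844 on the plus strand for Col25a1. The Col25a1 start used here lies inside the gene as annotated by GENCODE, which begins at position 130131501 of the chromosome. For the other genes the stretch ends at the GENCODE start. In windows that also took in the first bases of the transcript, the GC box was present in 21 of the 35 member promoters and in 32.9% of all 27025 promoters. The CCAAT box was found in 12 of the 35 and in 34.5% of all, and the TATA box in 5 of the 35 and in 13% of all. A match is a description of the letters only.

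Many members also lie side by side in the genome, which bears on pairs of chains compared further on. In 8 instances 2 collagen genes lay within 200 kb of each other, and 3 of these pairs were head to head, all of them basement membrane chains. The annotated starts of Col4a1 and Col4a2 shared 22 bases on chromosome 8, those of Col4a4 and Col4a3 were 71 bases apart on chromosome 1, and those of Col4a6 and Col4a5 were 1308 bases apart on chromosome X. Col6a6, Col6a5 and Col6a4 followed each other on chromosome 9.

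The 21 libraries held 17814073 to 27115729 counts each. One tooth stood apart, the left tooth of embryo 3 at E16, in which 20.6% of genes were more than 2-fold away from the median of the stage, against 2.95% to 10.2% in the other 20 teeth. Its deviation moved with the GC content of the transcript, from a median log2 deviation of 0.61 in the 3812 genes with the lowest GC content to -0.65 in the 3812 with the highest, whereas in the other teeth no such group of genes deviated by more than 0.18. The tooth was also lowest at E16 in 27 of the 44 members, so the number of called members is given with and without it. For some of the genes whose call or size of change depended on it, values without it are given too. The part of GC content in the collagen levels of this tooth was not tested. The marker lists of the labelled tissue were expressed in all 21 teeth, led by Krt5 and Krt14 in the epithelium and Prrx1 and Pdgfra in the mesenchyme, with summed normalised counts of 13716 to 60578 for 6 dental epithelium genes and 23616 to 72709 for 6 dental mesenchyme genes.

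**Figure D1:**
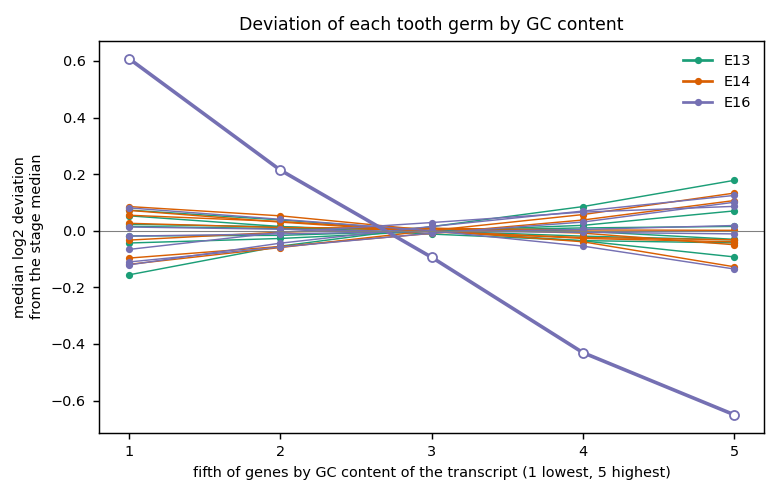
Median log2 deviation of each tooth germ from the median of its stage (y axis) in 5 equal groups of genes ordered by the GC content of the transcript (x axis, lowest to highest), 1 line per tooth colored by stage. The line with open points is the E16 left tooth of embryo 3, which runs from 0.61 to -0.65, and the other 20 teeth stay close to 0.

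Collagen genes took a share of all counts whose mean grew from stage to stage. The share was 1.24% ± 0.0831 (SD, n = 7) at E13, with teeth from 1.17% to 1.41%, and 1.54% ± 0.115 at E14, with teeth from 1.40% to 1.73%. At E16 the mean was 1.77% ± 0.425, but the left tooth of embryo 3 had 0.826% and the other 6 teeth lay between 1.75% and 2.0%, with a mean of 1.92% ± 0.100. Apart from that tooth, each E16 tooth was above each E14 tooth, while 1 E13 tooth overlapped the range of E14. With all teeth the mean did not rise from E14 to E16 when Col1a1, Col1a2 and Col3a1 were left out (0.848% and 0.824%). The same held with counts per kb of exon (0.603% and 0.596%). Without that tooth these 2 E16 means were 0.879% and 0.654%. With counts per kb the E16 right tooth of embryo 7 was low as well, at 0.224%. The E16 mean per kb was 0.740% without both teeth, a setting chosen after seeing the data. Fewer cells of a type and less RNA per cell cannot be told apart in such whole tooth germs.

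Col1a1, Col1a2 and Col3a1, the chains of the type I and type III fibrils, supplied 40.1% to 56.9% of the collagen counts of each tooth. On average they gave 47.5% ± 0.650 of the collagen counts at E13, 45.1% ± 2.20 at E14 and 52.7% ± 5.69 at E16. Microfibrillar genes gave 15.8% ± 0.869 at E13 and 16.6% ± 1.32 at E14, and then 11.2% ± 0.172 at E16, where all 7 teeth, the left tooth of embryo 3 included, lay between 11% and 11.5%. The lowest E13 and E14 teeth, at 14.4% and 14.6%, were above that range. FACIT genes went the other way, from 6.90% ± 0.715 at E13 to 9.50% ± 0.640 at E14 and 10.5% ± 1.90 at E16, where the range overlapped that of E14. The highest E16 tooth for the FACIT share, at 13.9%, was the left tooth of embryo 3. That tooth was also the lowest of all for Col1a1, Col1a2 and Col3a1, at 40.1%.

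**Figure D2:**
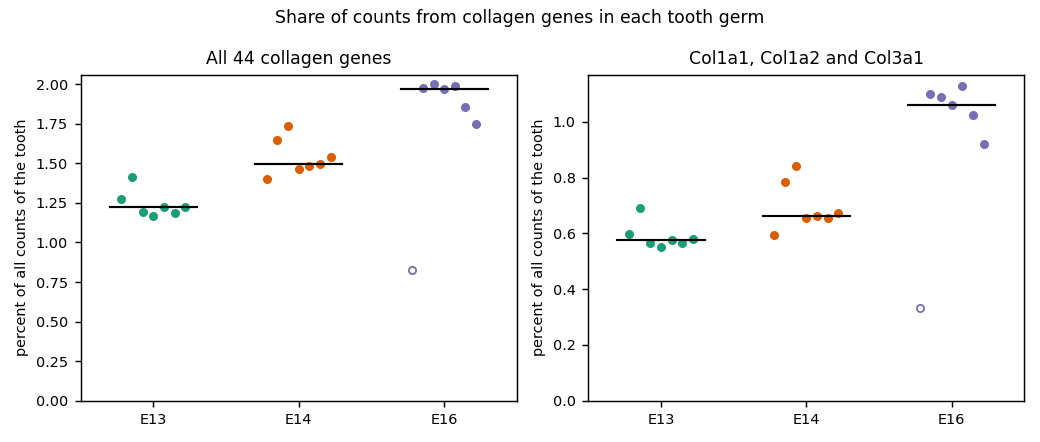
Percent of all counts of a tooth (y axis, from 0) that came from the 44 collagen genes (left) and from Col1a1, Col1a2 and Col3a1 (right) at E13, E14 and E16, 1 point per tooth with a line at the median. The open point is the E16 left tooth of embryo 3 at 0.826% on the left, below every other tooth.

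On the scale of normalised counts per kilobase of exon, Col1a1 had the highest level at each stage, followed by Col3a1 and Col1a2. The length is that of all annotated exons merged, 6563 bases for Col1a1, 9816 for Col3a1 and 12426 for Col1a2. The order between genes depends on it, and without division by length the counts of Col3a1 and Col1a2 overlapped at E13. The mean level of Col1a1 was 7879 ± 863 per kb at E13, 12164 ± 2098 at E14 and 17627 ± 6512 at E16. Col3a1 stood at 4429 ± 341, 4249 ± 252 and 6013 ± 1866 per kb, and Col1a2 at 3394 ± 225, 3270 ± 520 and 4003 ± 1164 per kb in the same order. Per kb these 3 genes did not overlap at E13, whereas at E14 the ranges of Col3a1 and Col1a2 overlapped. Col3a1 was the higher per kb in each of the 7 E14 teeth.

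Below these, Col5a1, Col6a3, Col4a1, Col5a2, Col6a1, Col6a2, Col12a1 and Col4a2 followed between 1006 and 2228 per kb at E13. Most neighbours in this order overlapped at E13, and the steps without overlap were those from Col6a3 down to Col4a1 and from Col4a2 down to Col18a1. Among all 44 members, Col12a1 ranked 10 at E13, 6 at E14 and 4 at E16, and the longest move was that of Col2a1, from 17 at E13 to 32 at E16. At the other end Col10a1, a marker of hypertrophic cartilage, and Col4a3 had mean levels of at most 0.714 per kb at each stage and did not pass the filter on low counts, which left 42 members to be tested.

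Between the bud and the cap stage, 16 of the 42 tested members (38.1%) passed edgeR's quasi-likelihood test with Benjamini-Hochberg adjustment at 0.05, against 19.7% of all 19101 genes tested. Of these, 11 were higher and 5 lower at E14, against 11.3% of all genes higher and 8.47% lower, and the median log2 fold change was 0.22 over the members and -0.01 over all genes tested. Between the cap and the bell stage 22 members passed, 15 higher and 7 lower, against 28.1% of all genes (15% higher and 13.1% lower). Over the whole interval from E13 to E16, 27 members passed, 21 higher and 6 lower, against 41.3% of all genes (21.6% higher and 19.6% lower), with a median log2 fold change of 0.45 over the members and -0.01 over all genes. The comparisons share stages, so their counts are not independent of each other.

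The tooth that stood apart widened the spread that the fit shares among all stages. When it was left out, 24 members passed between E13 and E14, 19 higher and 5 lower, against 30.4% of all genes, which was 8 more members higher than with all teeth. The same fit gave 29 members between E14 and E16, 22 higher and 7 lower, against 34.3% of all genes, and 34 between E13 and E16, 28 higher and 6 lower, against 48.7%. No called member changed its direction, and the values of Col5a1, Col6a3 and Col15a1 at E16 against E13, which passed in neither fit, turned from below to above 0. Leaving it out added calls for Col1a1, Col4a1, Col4a2, Col6a1, Col6a3, Col15a1, Col18a1 and Col23a1 between E13 and E14. It added Col1a1, Col1a2, Col4a1, Col4a2, Col6a1, Col12a1 and Col18a1 between E14 and E16, and Col1a2, Col4a1, Col4a4, Col5a2, Col6a2, Col8a2 and Col23a1 between E13 and E16, all of them higher at the later stage.

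**Figure D3:**
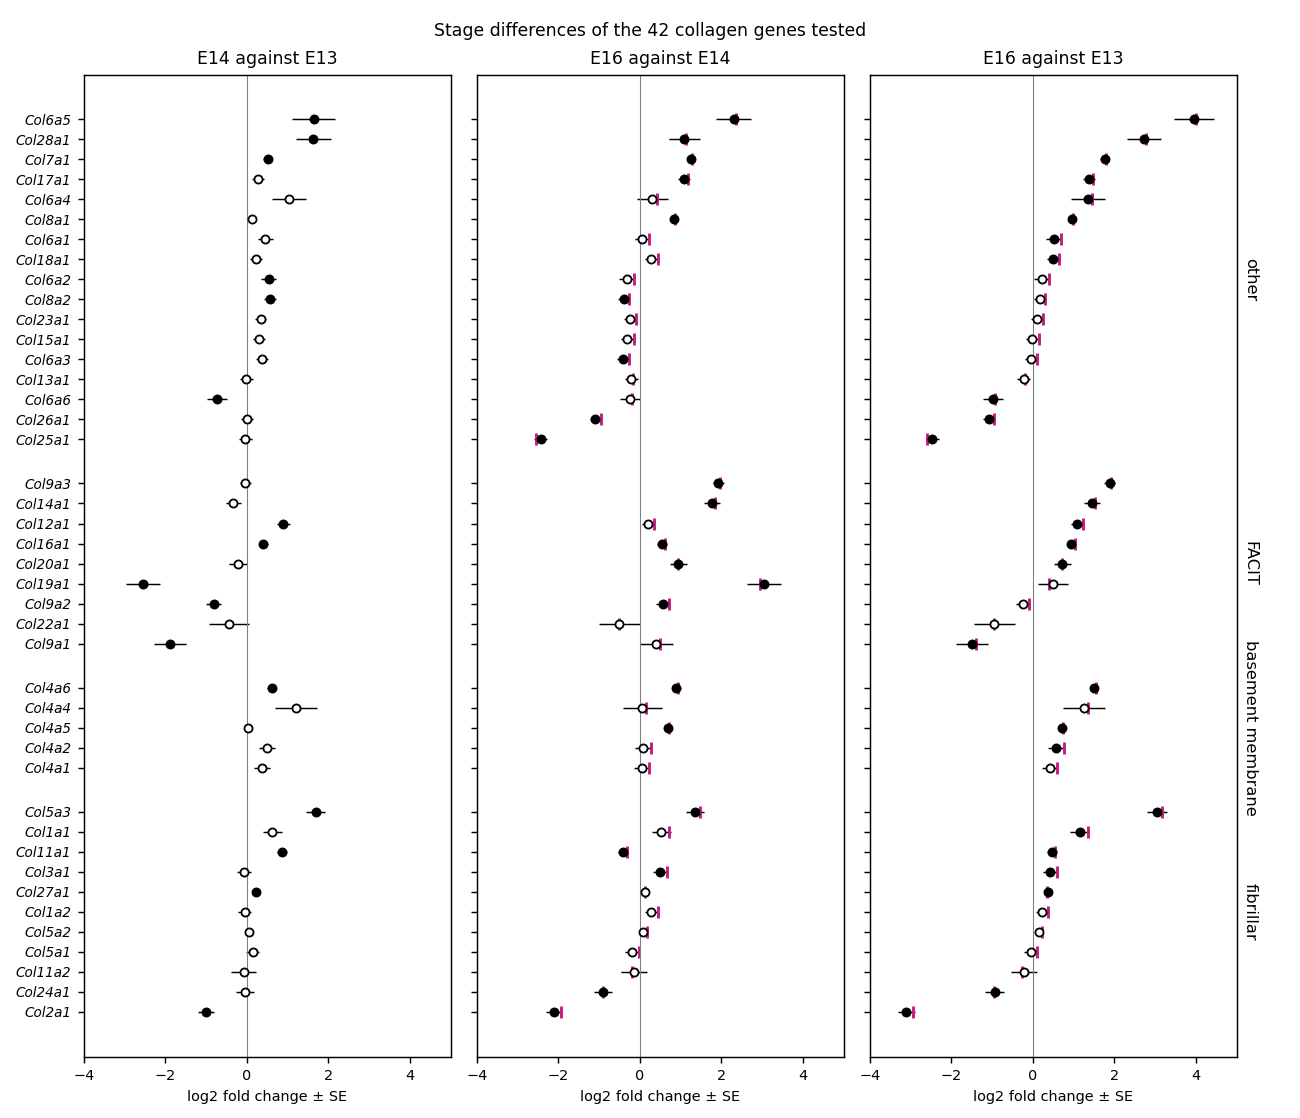
Log2 fold change with its standard error (x axis) of the 42 collagen genes tested, ordered by class, between E14 and E13, E16 and E14, and E16 and E13. Filled points passed edgeR's quasi-likelihood test at an adjusted p of 0.05, open points did not, and magenta marks in the E16 comparisons show the value without the E16 left tooth of embryo 3. Col6a5 lies furthest to the right at E16 against E13, at 3.95, and Col2a1 furthest to the left, at -3.11.

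Among the 11 fibrillar genes, 3 were higher, 1 lower and 7 not called at E14 against E13, against 11.3% of all genes higher and 8.47% lower. At E16 against E14, 2 were higher, 3 lower and 6 not called, against 15% of all genes higher and 13.1% lower. At E16 against E13, 5 were higher, 2 lower and 4 not called, against 21.6% of all genes higher and 19.6% lower. Col1a1, which encodes the main chain of type I collagen, had normalised counts of 46908 to 60992 at E13 (median 49513), 67155 to 103221 at E14 (median 74282) and 24586 to 144971 at E16 (median 136112). The E13 and E14 teeth did not overlap, and at E16 the left tooth of embryo 3 was below every tooth of both earlier stages while the other 6 were all above them, from 103608 upwards. Col1a1 was higher at E16 than at E13 by 1.15 ± 0.23 (SE) on the log2 scale (adjusted p = 0.000249) and by 1.35 without that tooth. Its change between E13 and E14, 0.62 ± 0.228, had an adjusted p of 0.055 with all teeth and of 2.5e-05 without that tooth, and the change between E14 and E16, 0.53 ± 0.228, had 0.0859 with all teeth and 3.5e-06 with a value of 0.72 without it.

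The other chains of type I and III fibrils did not pass the test between E13 and E14. Col3a1 had 39759 to 49115 normalised counts at E13 (median 42391), 37747 to 45387 at E14 (median 42106) and 19072 to 75370 at E16 (median 62366), with 6 of the 7 E16 teeth at 61809 or more and above all earlier teeth. It was higher at E16 than at E14 by 0.50 ± 0.173 (adjusted p = 0.0331) and than at E13 by 0.43 ± 0.172 (adjusted p = 0.0466), and these values were 0.67 and 0.60 without the left tooth of embryo 3 (adjusted p = 8.5e-09 and 2e-08). With all teeth the latter call was lost in 16 alternative settings. Col1a2, the partner chain of Col1a1, had 39729 to 48070 counts at E13, 32276 to 51384 at E14 and 20578 to 66264 at E16. Its log2 fold change was -0.06 ± 0.16 at E14 against E13 and 0.23 ± 0.16 at E16 against E13 (adjusted p = 0.85 and 0.264), and the latter became 0.38 (adjusted p = 0.0014) without that tooth.

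Type V collagen, which co-assembles with type I and limits fibril width, showed 2 patterns. Its chains Col5a1 and Col5a2 passed in no comparison with all teeth, with log2 fold changes of -0.05 ± 0.161 and 0.14 ± 0.0936 at E16 against E13, and Col5a2 passed in that comparison without the left tooth of embryo 3, at 0.23 (adjusted p = 0.0058). The minor chain Col5a3 had 16.3 to 50.5 normalised counts at E13 (median 29.2), 47.6 to 138 at E14 (median 108) and 139 to 305 at E16 (median 272). E16 did not overlap either earlier stage, its lowest tooth being the left tooth of embryo 3, and E13 and E14 overlapped narrowly. Col5a3 rose by 1.69 ± 0.243 between E13 and E14 (adjusted p = 1.75e-05) and by 1.36 ± 0.22 between E14 and E16 (adjusted p = 3.61e-05), which made it the second highest rise among members over the whole interval, at 3.05 ± 0.244.

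Col11a1, a fibrillar chain found in cartilage and in other connective tissues, peaked at the cap stage. It had 4816 to 7812 normalised counts at E13, 9422 to 14509 at E14 and 6104 to 10587 at E16, so that E13 and E14 did not overlap. Col11a1 was higher at E14 than at E13 by 0.87 ± 0.121 (adjusted p = 1.07e-05) and lower at E16 than at E14 by 0.41 on the log2 scale (-0.41 ± 0.12, adjusted p = 0.0121). Its partner Col11a2 did not pass in any comparison, and 1 tooth of E14, the left tooth of embryo 8, reached 1273 where the median was 310.

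Col2a1, the fibrillar collagen of cartilage, fell at every step. Its normalised counts were 3246 to 3873 at E13 (median 3584), 1298 to 2735 at E14 (median 1491) and 148 to 542 at E16 (median 438), and no 2 stages overlapped. The log2 fold change was -1.0 ± 0.193 at E14 against E13 (adjusted p = 0.000525), -2.10 ± 0.202 at E16 against E14 (adjusted p = 1.79e-08) and -3.11 ± 0.209 over the whole interval (adjusted p = 1.21e-11), or -2.95 without the left tooth of embryo 3, which was the lowest. Over the same stages the summed level of the 8 cartilage markers Acan, Matn1, Matn3, Hapln1, Cnmd, Ucma, Snorc and Comp was 364 to 498 at E13, 381 to 554 at E14 and 748 to 1018 at E16, but Hapln1 alone made up most of it, with a mean of 802 at E16. Of the 3 cartilage markers with enough counts to be tested, Acan and Hapln1 were called higher at E16 against E14 and Cnmd lower at E14 against E13, and Hapln1 and Acan were the most abundant. The means of Cnmd, 41.1, 8.83 and 5.30 in the order of the stages, went down as those of Col2a1 did, and the part of cartilage in the level of Col2a1 was not tested. Acan, the cartilage proteoglycan core protein, had 2.14 to 12.8 counts at E13 and 15.2 to 83.2 at E16.

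Col24a1 and Col27a1, fibrillar genes with a shorter uninterrupted repeat (216 and 217 repeats), moved in opposite directions. Col24a1, known from forming bone, had 708 to 1592 normalised counts at E13, 699 to 2276 at E14 and 460 to 687 at E16, with no overlap between E16 and either earlier stage, and was lower at E16 than at E13 by -0.94 ± 0.223 (adjusted p = 0.00147). The highest E14 tooth for this gene, the left tooth of embryo 8, was also the highest for the 9 osteoblast markers, with a summed level of 21350 where the median of E14 was 5459. The part of bone-forming tissue in the level of Col24a1 was not tested. Col27a1 had 3466 to 3815 counts at E13 and 3873 to 4966 at E14, without overlap, and was higher by 0.23 ± 0.0721 at E14 (adjusted p = 0.0233) and by 0.36 ± 0.0721 at E16 against E13 (adjusted p = 0.000253).

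**Figure D4:**
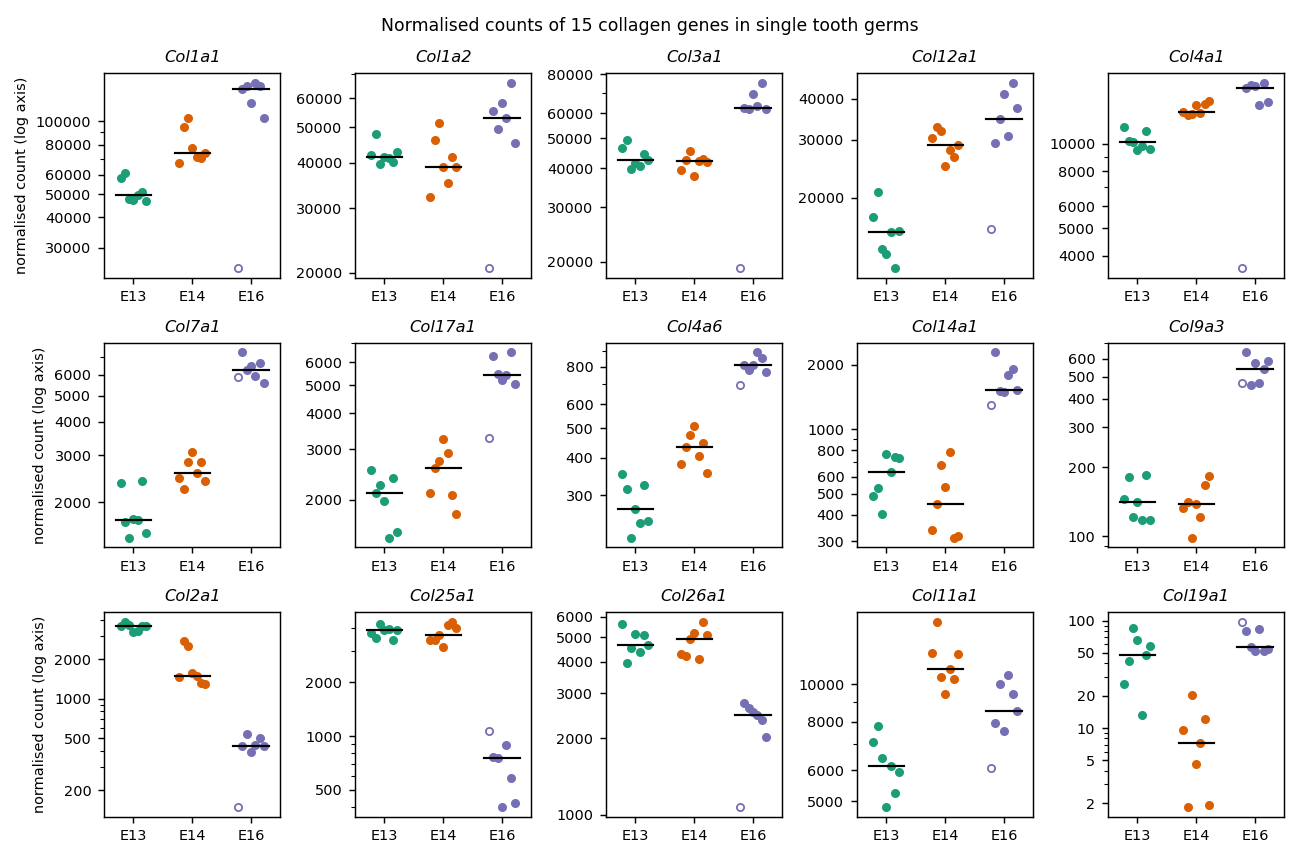
Normalised counts (y axis, logarithmic) of 15 collagen genes in the 7 tooth germs of E13, E14 and E16, 1 point per tooth with a line at the median. The open point is the E16 left tooth of embryo 3, which is far below the other E16 teeth in Col1a1, Col1a2, Col3a1 and Col4a1 and within or close to them in Col7a1, Col4a6 and Col9a3.

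None of the 5 basement membrane genes tested was called lower, where 8.47%, 13.1% and 19.6% of all genes were lower in the 3 comparisons. With so few genes, none lower is close to those shares. Of the 5, 1 was higher at E14 against E13, 2 at E16 against E14 and 3 at E16 against E13, against 11.3%, 15% and 21.6% of all genes higher. These counts were 3, 4 and 5 without the left tooth of embryo 3, a fit that called 30.4%, 34.3% and 48.7% of all genes in either direction. The pair Col4a5 and Col4a6, chains of epithelial and kidney basement membranes, rose whether or not the tooth was included. Col4a6 had 217 to 352 normalised counts at E13 (median 270), 356 to 508 at E14 (median 434) and 693 to 894 at E16 (median 807), and no 2 stages overlapped. Its log2 fold change was 0.61 ± 0.104 at E14 against E13 (adjusted p = 0.00014), 0.90 ± 0.102 at E16 against E14 (adjusted p = 2.49e-07) and 1.51 ± 0.105 at E16 against E13 (adjusted p = 2.15e-11). Col4a5 was not called between E13 and E14, from 794 to 1061 at E13 and from 913 to 1059 at E14, and then rose to between 1381 and 1732 at E16, by 0.69 ± 0.0774 (adjusted p = 2.04e-07).

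The ubiquitous chains Col4a1 and Col4a2 depended on the tooth that stood apart. Col4a1 had 9505 to 11460 normalised counts at E13, 12637 to 14214 at E14 and 3602 to 16562 at E16, with the 6 other E16 teeth at 13733 or more. Its E13 and E14 teeth did not overlap, yet the log2 fold change of 0.37 ± 0.189 had an adjusted p of 0.174 with all teeth and of 9e-06 without the left tooth of embryo 3. Col4a2 had 6247 to 7128 counts at E13 and 9134 to 9803 at E14. Its log2 fold change of 0.49 ± 0.202 had an adjusted p of 0.0883 with all teeth and of 1.4e-08 without that tooth. Col4a2 was higher at E16 than at E13 by 0.57 ± 0.202 (adjusted p = 0.0267), or by 0.76 without that tooth. Col4a1 passed at E16 against E13 only without that tooth, at 0.60. In that tooth Col4a2 stood at 19.9% and Col4a1 at 23.3% of the mean of the other E16 teeth, next to 18.8% for Col1a1. The 7 endothelium markers together stood at 3825 there, where the other 6 teeth had 9256 to 11336. A low sum was not particular to endothelium. Osteoblast markers stood at 4449 (others 8948 to 11056), dental epithelium at 33615 (51594 to 60578) and dental mesenchyme at 23616 (34033 to 39453). Cartilage and skeletal muscle sums lay within the ranges of the other E16 teeth. Without the left tooth of embryo 3, 3 of the 7 endothelium markers were called higher at E14 against E13, 2 at E16 against E14 and 4 at E16 against E13. That fit called 30.4%, 34.3% and 48.7% of all genes in either direction, so counts out of 7 are not far from those shares. The part of endothelium in the levels of both chains was not tested. Col4a4 had at most 23.2 counts in any tooth and an adjusted p of 0.0509 at E16 against E13.

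Of the 9 FACIT genes, 2 were higher, 3 lower and 4 not called at E14 against E13, against 11.3% of all genes higher and 8.47% lower. At E16 against E14, 6 were higher, none lower and 3 not called, against 15% of all genes higher and 13.1% lower. Col12a1, which binds type I fibrils in dense connective tissue, had 12188 to 20779 normalised counts at E13 (median 15706), 24962 to 32738 at E14 (median 28942) and 16018 to 44862 at E16 (median 34684). E13 and E14 did not overlap, and the log2 fold change was 0.89 ± 0.156 (adjusted p = 0.000183). Between E14 and E16 the value was 0.20 ± 0.155 (adjusted p = 0.363) with all teeth and 0.34 (adjusted p = 0.017) without the left tooth of embryo 3. Col16a1 rose at both steps, by 0.41 ± 0.117 (adjusted p = 0.0155) and 0.54 ± 0.117 (adjusted p = 0.00105), from 2288 to 3615 counts at E13 to 4038 to 6904 at E16.

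Col14a1, another fibril-binding collagen, and Col20a1 were not called at the cap stage and were higher at the bell stage. Col14a1 had 402 to 763 normalised counts at E13, 311 to 787 at E14 and 1295 to 2291 at E16, where each tooth was above all earlier ones, and it rose by 1.78 ± 0.197 between E14 and E16 (adjusted p = 1.57e-07). Col20a1 rose by 0.94 ± 0.206 over the same step (adjusted p = 0.00108), with overlapping ranges of 47 to 87.5 and 54.2 to 184. Col22a1, a collagen of tissue junctions such as that of muscle and tendon, was not called, and its levels ran from 30.9 to 569 among the E14 teeth alone.

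The 3 chains of type IX collagen, best known from the surface of cartilage fibrils, did not move together. Col9a1 fell between E13 and E14, from 14.1 to 50 normalised counts (median 37.8) to 1.90 to 19.1 (median 9.31), with a log2 fold change of -1.89 ± 0.393 (adjusted p = 0.00113), and stayed low at E16. Col9a2 fell from 299 to 418 counts at E13 to 169 to 240 at E14, without overlap (-0.82 ± 0.181, adjusted p = 0.00215), and was higher again at E16 than at E14 by 0.57 ± 0.181 (adjusted p = 0.0197). Col9a3 had 118 to 185 counts at E13, 98.1 to 183 at E14 and 459 to 641 at E16, a rise of 1.93 ± 0.136 between E14 and E16 (adjusted p = 8.76e-11) in which all 7 teeth were above all earlier ones, the left tooth of embryo 3 included at 469. Exons of Col9a3 overlap those of Tcfl5 on the other strand over a short stretch, and since the strand setting of the counting is not given in the sources used here, reads of that stretch cannot be assigned to either gene.

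Col19a1, a FACIT gene known from muscle and basement membrane zones, dipped at the cap stage. It had 13.2 to 85.2 normalised counts at E13 (median 47.7), 1.82 to 20.4 at E14 (median 7.27) and 52.1 to 97.9 at E16 (median 57.0). E14 lay wholly below E16 and overlapped E13. The log2 fold change was -2.55 ± 0.423 at E14 against E13 (adjusted p = 9.85e-05) and 3.04 ± 0.421 at E16 against E14 (adjusted p = 4.68e-06), the highest rise of any member over that step. In the separate table the 6 teeth of E15 had 0 to 9.19 counts of Col19a1, against 13.1 to 67.5 at E13 and 45.7 to 92.7 at E16. Teeth outside the comparison were thus low as well, but there stage and set of samples cannot be told apart.

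Col7a1 and Col17a1, whose products anchor basal epithelium to the tissue beneath, both rose to the bell stage. Col7a1 had 1473 to 2406 normalised counts at E13 (median 1717), 2239 to 3088 at E14 (median 2580) and 5582 to 7293 at E16 (median 6252), and it rose by 0.51 ± 0.104 (adjusted p = 0.000895) and then by 1.25 ± 0.105 (adjusted p = 1.77e-09). The E16 teeth did not overlap earlier ones, and the left tooth of embryo 3 had 5860, or 92.2% of the mean of the others. The GC content of the Col7a1 transcript is 61.6%. Col17a1 had 1478 to 2540 counts at E13, 1784 to 3244 at E14 and 3276 to 6505 at E16, with a log2 fold change of 0.28 ± 0.147 at the first step (adjusted p = 0.183) and 1.09 ± 0.148 at the second (adjusted p = 3.48e-06). All 6 of the dental epithelium markers were also called higher at each step, and their summed level was 13716 to 20882 at E13, 24128 to 31052 at E14 and 33615 to 60578 at E16, and of the 6 dental mesenchyme markers 2 and then 4 were called lower. Their part in the rise of both genes was not tested.

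The other transmembrane collagens included the largest fall at the bell stage. Col25a1, known from neurons and from the innervation of muscle, had 3460 to 4218 normalised counts at E13 (median 3926), 3165 to 4372 at E14 (median 3656) and 398 to 1072 at E16 (median 749). Its log2 fold change was -0.03 ± 0.154 at E14 against E13 (adjusted p = 0.904) and -2.43 ± 0.163 at E16 against E14 (adjusted p = 3.87e-11), without overlap. The left tooth of embryo 3 was the highest E16 tooth for this gene, and the value was -2.55 without it. The highest E13 tooth, the left tooth of embryo 7 at 4218, was also the highest for skeletal muscle markers, with a sum of 28963 where the E13 median was 960. That sum had medians of 1123 at E14 and 1031 at E16, and the highest E14 tooth had 4372 counts of Col25a1. The part of skeletal muscle in the level of Col25a1 was not tested. Col13a1 was not called in any comparison, and Col23a1 passed only without that tooth, at 0.34 for E14 against E13 and 0.25 for E16 against E13.

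Type VI collagen forms beaded filaments around cells. One of its main chains, Col6a3, had 23084 to 28882 normalised counts at E13 (median 26052), 30802 to 37844 at E14 (median 33800) and 11004 to 30997 at E16 (median 27810). E13 and E14 did not overlap, the log2 fold change of 0.37 ± 0.141 had an adjusted p of 0.0669 with all teeth and of 5.7e-05 without the left tooth of embryo 3, and Col6a3 was lower at E16 than at E14 by -0.41 ± 0.141 (adjusted p = 0.031), or -0.27 without it (adjusted p = 0.002). Col6a2 was higher at E14 than at E13 by 0.54 ± 0.185 (adjusted p = 0.0412), from 7985 to 9934 counts at E13 to 12133 to 14234 at E14, a call lost in 16 alternative settings although the ranges did not overlap. Col6a1 rose over the whole interval, by 0.51 ± 0.18 (adjusted p = 0.0251). It had 4771 to 6349 counts at E13 and 8070 to 10051 in 6 E16 teeth, and 2332 in the left tooth of embryo 3. Without that tooth the rise of Col6a1 was 0.68. Col6a1 then also passed at E14 against E13 (0.45, adjusted p = 6.2e-06) and at E16 against E14 (0.23, adjusted p = 0.0068).

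The minor chains of type VI went different ways although their genes are neighbours. Col6a5 had 0 to 4.73 normalised counts at E13, 5.02 to 10.6 at E14 and 13.4 to 69.4 at E16, from 15, 53 and 267 raw counts over the 7 teeth of each stage, and no 2 stages overlapped. It rose by 1.65 ± 0.528 (adjusted p = 0.0292), by 2.30 ± 0.424 (adjusted p = 0.000182) and by 3.95 ± 0.494 over the whole interval (adjusted p = 5.05e-07), the highest rise of any member. Col6a6 fell from 178 to 362 counts at E13 to 141 to 219 at E14 (-0.74 ± 0.247, adjusted p = 0.0351), a call lost in 9 alternative settings. It was lower at E16 than at E13 (-0.98 ± 0.248, adjusted p = 0.00263) and was not called at E16 against E14 (-0.24, adjusted p = 0.52). Col6a4 was higher at E16 than at E13 by 1.35 ± 0.412 (adjusted p = 0.0105), at no more than 51.9 counts in any tooth.

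Col28a1 and Col26a1, grouped with type VI here, moved in opposite directions. Col28a1, known from glial cells of peripheral nerves, had 0 to 17.1 normalised counts at E13, 11.6 to 39.1 at E14 and 31.0 to 84.3 at E16, and it rose by 1.63 ± 0.42 (adjusted p = 0.00724) and by 1.09 ± 0.373 (adjusted p = 0.0298). The 7 Schwann cell markers had a summed level of 1401 to 1885 at E13, 1385 to 2076 at E14 and 1506 to 2551 at E16, of which 1 was called lower at the first step and Mbp and Erbb3, the most abundant, higher at the second, and their part in the level of Col28a1 was not tested. Col26a1 had 3942 to 5650 counts at E13, 4107 to 5753 at E14 and 1069 to 2750 at E16, and it fell between E14 and E16 by -1.09 ± 0.141 (adjusted p = 1.71e-06) without overlap, or by -0.95 without the left tooth of embryo 3.

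The short-chain collagens Col8a1 and Col8a2, which form hexagonal networks, moved in opposite directions at the bell stage. Col8a1 had 1161 to 1745 normalised counts at E13, 1249 to 1796 at E14 and 2353 to 3071 at E16 and rose by 0.84 ± 0.0919 between E14 and E16 (adjusted p = 1.36e-07). Col8a2 had 1954 to 3033 counts at E13 and 3322 to 4410 at E14, a rise of 0.57 ± 0.142 (adjusted p = 0.00594) without overlap, and was lower at E16 than at E14 (-0.39 ± 0.142, adjusted p = 0.0437), a call lost in 18 alternative settings and with a value of -0.26 without the left tooth of embryo 3. The multiplexins, whose C-terminal parts release endostatin-like fragments, differed. Col18a1 was higher at E16 than at E13 by 0.50 ± 0.148 (adjusted p = 0.00876). Col15a1 passed only without the left tooth of embryo 3, at 0.30 for E14 against E13 (adjusted p = 0.00039). Without that tooth the rise of Col18a1 was 0.65. Col18a1 then also passed at E14 against E13 (0.21, adjusted p = 0.0102) and at E16 against E14 (0.44, adjusted p = 5.9e-06).

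Chains of one collagen type assemble with each other, so the ratio of their counts within a tooth was followed as a measure that does not depend on scaling between libraries. For 9 pairs and 3 comparisons the log2 ratios were compared with two-sided exact permutation tests over teeth, adjusted by Benjamini-Hochberg over the 27 tests, of which 22 passed 0.05. The smallest p that 7 against 7 teeth allow is 0.000583, with an adjusted p of 0.00197, and 8 of the tests reached it. These are ratios of counts and not of counts per length, so only their changes are compared.

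Col1a1 gained on Col1a2, its partner in the type I triple helix. The ratio had a median of 1.21 at E13 (1.10 to 1.39), 2.01 at E14 (1.69 to 2.08) and 2.29 at E16 (1.19 to 2.83). E13 and E14 did not overlap, with a difference of 0.68 in log2 ratio (permutation p = 0.000583, adjusted p = 0.00197). The left tooth of embryo 3 had 1.19 at E16 and the other 6 teeth 2.06 to 2.83. Between E14 and E16 the difference was 0.15 (permutation p = 0.414, adjusted p = 0.43) with all teeth and 0.29 (permutation p = 0.0035, adjusted p = 0.00674) without it.

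Basement membrane pairs shifted in steps of different size. The ratio of Col4a5 to Col4a6 fell from a median of 3.29 at E13 (2.97 to 3.91) to 2.14 at E14 (2.08 to 2.64) and 1.99 at E16 (1.57 to 2.14), with a difference of -0.59 between E13 and E14 (permutation p = 0.000583, adjusted p = 0.00197) and no overlap. The ratio of Col4a1 to Col4a2, genes whose starts overlap, stayed between 1.31 and 1.64 in all 21 teeth, with differences of -0.12 (adjusted p = 0.0331) between E13 and E14 and of -0.01 (adjusted p = 0.878) between E14 and E16 in the same permutation test.

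Chains of type VI and VIII shifted between the cap and the bell stage. The ratio of Col6a1 to Col6a2 was 0.584 to 0.641 at E13, 0.546 to 0.628 at E14 and 0.692 to 0.798 at E16, where no tooth overlapped an earlier one, with a difference of 0.39 between E14 and E16 (permutation p = 0.000583, adjusted p = 0.00197). Col6a3 relative to Col6a1 had medians of 4.84, 4.48 and 3.19 in the order of the stages, and at E16 the left tooth of embryo 3 had 4.72 and the others 2.98 to 3.39. Its difference between E14 and E16 was -0.42 (permutation p = 0.00408, adjusted p = 0.00847), or -0.50 without that tooth. Col8a1 relative to Col8a2 rose from 0.307 to 0.541 at E14 to 0.659 to 1.80 at E16 (difference 1.28, permutation p = 0.000583, adjusted p = 0.00197).

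The largest shift of all was that of Col9a1 relative to Col9a3, with medians of 0.254, 0.0671 and 0.0173 in the order of the stages. The log2 difference between E13 and E16 was -3.48 (permutation p = 0.000583, adjusted p = 0.00197) and no tooth overlapped, but the counts of Col9a1 are low. Among fibrillar pairs, Col11a1 relative to Col11a2 had medians of 13.1, 33.4 and 19.0, with a difference of 1.19 between E13 and E14 (permutation p = 0.0128, adjusted p = 0.0216), and the E14 teeth spread from 11.4 to 51.8. Col5a1 relative to Col5a2 differed by -0.34 between E14 and E16 (permutation p = 0.0122, adjusted p = 0.0216) with all teeth and by -0.20 (adjusted p = 0.033) without the left tooth of embryo 3, where the ratio was 0.674 against 1.24 to 1.56 in the others. Its difference between E13 and E16, -0.26 (permutation p = 0.039, adjusted p = 0.0479), was -0.11 (adjusted p = 0.0917) without that tooth.

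**Figure D5:**
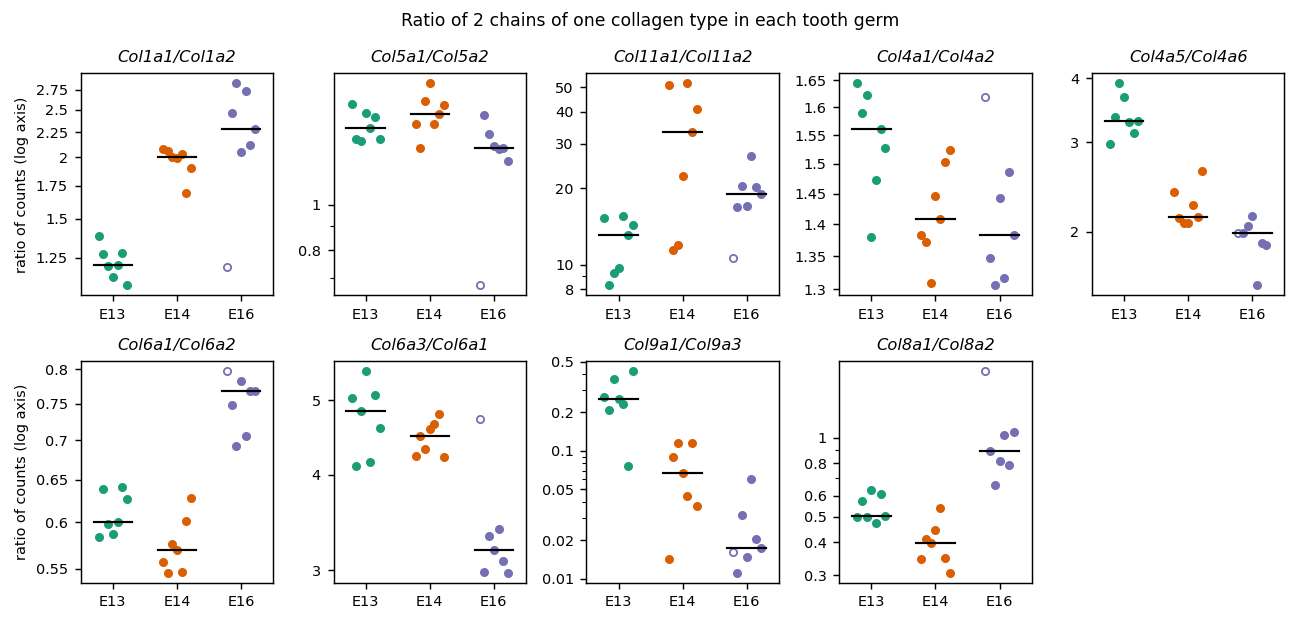
Ratio of the counts of 2 chains (y axis, logarithmic) for 9 pairs in the 7 tooth germs of E13, E14 and E16, 1 point per tooth with a line at the median. The open point is the E16 left tooth of embryo 3, which stands apart in Col1a1/Col1a2, Col5a1/Col5a2, Col6a3/Col6a1 and Col8a1/Col8a2, while in Col6a1/Col6a2 all 7 E16 teeth are above all earlier teeth.

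The genes that make, process and bind collagens were described with 3 lists of 46 genes, of which 45 were tested. In these, 11 were higher and 4 lower at E14 against E13, 7 higher and 10 lower at E16 against E14, and 14 higher and 10 lower at E16 against E13. Over all genes 11.3% were higher and 8.47% lower, 15% and 13.1%, and 21.6% and 19.6% in the same order. Without the left tooth of embryo 3 the counts were 14 and 5, 10 and 9, and 16 and 11, in a fit that called 30.4%, 34.3% and 48.7% of all genes in either direction. The median log2 fold change of the machinery genes between E13 and E16 was 0.01 with all teeth, against 0.45 for the collagen genes themselves and -0.01 for all genes. Without that tooth these medians were 0.11, 0.57 and -0.01.

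Of the 23 genes for hydroxylation, glycosylation, folding and export, 2 were higher and 1 lower at E14 against E13, and 1 was higher and 5 lower at E16 against E14. Of all genes, 11.3% were higher and 8.47% lower in the first comparison, and 15% and 13.1% in the second. Creb3l1, a transcription factor that drives procollagen genes in bone, was higher at E14 by 1.09 ± 0.299 (adjusted p = 0.0112), P4ha1, a subunit of prolyl 4-hydroxylase, by 0.30 ± 0.106 (adjusted p = 0.049), and Colgalt2, a collagen galactosyltransferase, was lower by -0.61 ± 0.155 (adjusted p = 0.00649). At E16 against E14 the largest changes were those of P4ha3, another prolyl 4-hydroxylase subunit (-0.52 ± 0.116, adjusted p = 0.00132), Plod2, a lysyl hydroxylase (-0.47 ± 0.0736, adjusted p = 2.73e-05), and P3h3, of the prolyl 3-hydroxylase family (-0.40 ± 0.105, adjusted p = 0.00515). The summed level of this list was 32589 in the left tooth of embryo 3 and 56101 to 64703 in the other E16 teeth.

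Propeptide cleavage and cross-linking genes were 5 higher and 2 lower of 13 at E14 against E13, against 11.3% of all genes higher and 8.47% lower. Loxl1, a lysyl oxidase that cross-links elastin and collagen, rose from 628 to 874 normalised counts at E13 to 2374 to 2872 at E14, by 1.90 ± 0.191 (adjusted p = 8.75e-08), and was lower again at E16 by -0.54 ± 0.184 (adjusted p = 0.0302). Pcolce, which enhances cleavage of the C-propeptide, rose by 0.99 ± 0.2 (adjusted p = 0.000861), and Tll2, a relative of the procollagen C-proteinase, fell by 2.62 on the log2 scale (adjusted p = 0.011) at low counts. Adamts14, a procollagen N-proteinase, and Loxl2 were lower at E16 than at E14, by -0.61 ± 0.0988 (adjusted p = 4.04e-05) and -0.45 ± 0.169 (adjusted p = 0.0496), and the value of Loxl2 was -0.28 (adjusted p = 0.00445) without the left tooth of embryo 3.

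Of the 9 collagen receptor genes tested, 4 were higher and 1 lower at E14 against E13, against 11.3% of all genes higher and 8.47% lower. At E16 against E14, 4 were higher and 2 lower, against 15% of all genes higher and 13.1% lower. Itga1, an integrin subunit that binds collagen IV and fibrillar collagens, had 285 to 431 normalised counts at E13, 600 to 851 at E14 and 1341 to 1733 at E16, without overlap, and rose by 1.05 ± 0.0926 (adjusted p = 1.05e-08) and 1.10 ± 0.0908 (adjusted p = 1.49e-09). Itga2, found on epithelia, rose by 0.52 ± 0.0919 (adjusted p = 0.000193) and 1.27 ± 0.0915 (adjusted p = 1.3e-10), and Itga11, a receptor for fibrillar collagen on mesenchymal cells, by 0.90 ± 0.188 (adjusted p = 0.00119) and 0.54 ± 0.183 (adjusted p = 0.028).

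Marker lists of other cell types that a dissected tooth can carry were summed in each tooth. The 9 osteoblast markers had 3257 to 9530 at E13, 3983 to 21350 at E14 and 4449 to 11056 at E16, with Alpl and Ibsp the most abundant, and 2 of 7 tested were called higher at E14 against E13 and none lower. Skeletal muscle markers, with Ttn and Myh3 the most abundant, were at 830 to 28963 at E13 and at 762 to 1704 at E14. The highest E13 value was that of the left tooth of embryo 7, and the medians were 960 at E13 and 1123 at E14. Of 8 tested, 3 were called lower at E14 against E13, among them Ttn, whose median was 724 at E13 and 769 at E14. Of the 7 endothelium markers, led by Cdh5 and Kdr, 1 was called higher at E14 against E13 and none in either direction at E16 against E14. Without the E16 left tooth of embryo 3 these were 3 and 2 higher. Over all genes 11.3% were higher and 8.47% lower at E14 against E13. The fit without that tooth called 30.4% and 34.3% of all genes in either direction. Among 4 odontoblast and ameloblast genes, led by Ambn and Enam, the sum was no more than 436 in any tooth, and Ambn, an enamel matrix gene and the only one tested, was higher at E16 than at E14. The part of these cells in the collagen levels was not tested.

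At E15, between the cap and the bell stage, 37 of the members were present in the separate table, which was scaled on its own and is given as a description. The study's methods name E13, E14 and E16 mouse molars but no E15 ones. A difference of E15 from the other stages therefore cannot be told apart from a difference between sets of samples. Its median normalised count of Col1a1 was 47199 at E13, 84241 at E15 (58663 to 118451 over 6 teeth) and 128678 at E16, and that of Col25a1 was 3737, 2231 (1865 to 2831) and 727. Some members had E15 medians near their E16 level, such as Col14a1, with medians of 584, 1416 and 1439, Col17a1, with 2013, 4548 and 5001, and Col4a6, with 253, 754 and 739. Others were still in between, such as Col2a1, with medians of 3554, 857 (654 to 1135) and 430. Col7a1, Col1a2 and Col6a3 were among the 7 members that this table does not hold.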

How the data were processed

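RNAseq libraries of single first molars were compared among E13, E14 and E16 (7 teeth each). Per the authors' methods, read quality was checked and trimmed (FastQC, AfterQC, Trimmomatic) before STAR alignment on GRCm38, and HTSeq gave the deposited counts per gene, which are whole numbers without normalization. The deposited table for E15 holds Salmon (version 0.99.0) counts of 14185 genes in E13, E15 and E16 teeth, used for levels at E15 and 1 alternative. Stage, embryo and side came from the sample labels, and 1 E13 column whose embryo is written X has no embryo number. The labels describe left and right teeth of some embryos as separate samples, so p-values measure the spread between teeth.

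Symbols, coordinates and exon lengths came from GENCODE M21 (GRCm38). Levels are counts divided by DESeq2 (version 1.42.0) size factors, 0.806 to 1.19 among libraries. Stages were compared with edgeR (version 4.0.16) quasi-likelihood tests in R 4.3.3, with TMM factors, filterByExpr and all 21 libraries in 1 fit, adjusted over 19101 genes, and the fit gave a coefficient of variation of 21.2% between teeth. Chain ratios were compared with exact permutation tests (scipy 1.17.1). The fits and tests were checked on simulated data.

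The members, gene lists and tests were chosen with earlier results of these data known. All members may be named, and full statistics are given for the 2 highest members per kb of each class, the 5 largest called changes per direction and comparison, and both chains of each pair, and for machinery lists the 3 largest called changes, and for marker lists the summed level and the 2 most abundant genes. Alternatives were another tool, other scaling factors, other filters, side of the jaw, the embryo number as a block, teeth summed by embryo, each tooth left out, the Salmon table, other denominators for the collagen share and a pseudocount of 1 for ratios.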

Additional observations from a re-analysis of the deposited data

Results flagged for a closer look

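In 162 sets of 7 teeth, 1 for each collagen gene, share or chain ratio at 1 stage, the highest and the lowest tooth were compared with the rest, and 23 sets held a tooth whose gap to its nearest neighbour exceeded the 95% critical value of Dixon's test (0.568 of the range). Chance gives about 1 in 20 such sets, and the sets share teeth.

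Of these, 17 concerned the E16 left tooth of embryo 3. It was the lowest tooth for Col1a1 (24586 normalised counts, others 103608 or more), Col3a1 (19072), Col5a1 (6580) and Col5a3 (139), and for Col2a1 (148). It was also lowest for the basement membrane chains Col4a1 (3602) and Col4a2 (2226), for Col6a1 (2332), Col6a2 (2923) and Col6a3 (11004), and for Col15a1 (723), Col18a1 (2537) and Col23a1 (909). Its collagen share of 0.826% was below the 1.75% or more of the other E16 teeth. Among ratios of counts it was lowest for Col5a1 to Col5a2 (0.674) and highest for Col6a3 to Col6a1 (4.72) and for Col8a1 to Col8a2 (1.80).

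The E16 right tooth of embryo 6 was highest for Col9a1, at 28.4 normalised counts where the next highest tooth had 14.47, and for the ratio of Col9a1 to Col9a3, at 0.0603. The E13 left tooth of embryo 3 was highest for Col1a2 (48070, others 39729 to 42732) and Col5a2 (14949, others 11734 or more). The E13 left tooth of embryo X had 11.1 counts of Col4a3, where no other E13 tooth had more than 1.11, and the E16 left tooth of embryo 5 had 51.9 of Col6a4, where the others had 17.4 to 32.3.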

How the results depend on the processing

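Between E13 and E14 the number of collagen genes called was 16, and it was 14 to 17 with DESeq2, other scaling factors, other filters, the side of the jaw as a factor or the teeth of 1 embryo summed. Over teeth left out in turn it ranged from 13 to 24, against 19 to 29 for the 22 called between E14 and E16 and 25 to 34 for the 27 called between E13 and E16, and the highest value was reached each time without the E16 left tooth of embryo 3. In the Salmon counts 24 members were called between E13 and E16. No called change of a collagen gene and no chain ratio that passed its test reversed its direction under any alternative run. The ratio of Col4a1 to Col4a2 at E16 against E14, which did not pass and lay near no change, turned in 6.

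The embryo number as a replicate block gave 9, 18 and 18 called genes in the order of the comparisons. Embryos with the same number at different stages are not related by the labels, and the deviations of their teeth correlated between -0.09 and 0.199.

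The mean collagen share over teeth left out in turn ranged from 1.21% to 1.25% at E13, 1.51% to 1.56% at E14 and 1.73% to 1.92% at E16. Of the counts of protein-coding genes it was 1.48%, 1.75% and 2.06% in the order of the stages. Without Col1a1, Col1a2 and Col3a1 it was 0.654%, 0.848% and 0.824%, and with counts per kb of exon 0.421%, 0.603% and 0.596%, so that E16 was no longer above E14. Without the E16 left tooth of embryo 3 these E16 values were 0.879% and 0.654%. With counts per kb the E16 right tooth of embryo 7 was lower still, at 0.224%, and the mean was 0.658% without that tooth and 0.740% without both, alternatives chosen after seeing the data. Chain ratios passed in 17 to 22 of 27 tests over teeth left out, and in 18 with averages over embryos.

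The calls lost most often were Col8a2 at E16 against E14, in 18 alternatives, and Col3a1 at E16 against E13 and Col6a2 at E14 against E13, in 16 each. Next were Col6a6 at E14 against E13, in 9, and Col6a3 at E16 against E14, in 8. Col28a1 at E16 against E14 and Col6a5 at E14 against E13 were lost in 6 each. Genes with few counts, such as Col6a5, Col9a1 and Col28a1, rest on few reads, which limits their precision.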
